A study of Rattus norvegicus with 6 samples.

Results

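The TGF-β and BMP pathway genes described here were the 60 protein-coding genes of the deposited rat table whose symbols name a TGF-β, BMP, GDF or activin ligand, a latent TGF-β binding protein (LTBP), a receptor or co-receptor, a Smad, the corepressors Ski and Skil, a secreted antagonist, or an Id factor. They were 60 of 34156 genes in the table and were found by their symbols. Fibroblast-like synoviocytes (FLS) are the connective tissue cells of the joint lining. RNA of rat RA-FLS, a purchased rat cell preparation labelled rheumatoid arthritis and wild type, was sequenced after treatment with TNF-α alone or with TNF-α and emodin (EMO), an anthraquinone found in rhubarb.

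All 6 libraries came from cells given 10 ng/mL TNF-α. The 3 libraries of the TNF-α group had no further agent, and the 3 of the TNF-α+EMO group came from cells that also received EMO at 80 μmol/L. No library of cells without TNF-α was analysed here, so no value below is an effect of TNF-α. The labels place every library at day 5, whereas the study's methods give a shorter incubation, and the true time is not settled by the sources used here. The study's methods call the libraries biological replicates. Whether these were separate cultures is not stated, and p-values then measure only the spread between these libraries.

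TGF-β is secreted in a latent complex with an LTBP, which anchors it in the matrix until it is released. TGF-β and activins signal through type II and type I receptors to Smad2 and Smad3, whereas BMPs signal mainly to Smad1, Smad5 and Smad9 (also called Smad8), and both groups of receptor-activated Smads act in the nucleus with Smad4. Smad6, Smad7, Ski and Skil dampen the response, gremlin 1, noggin and chordin bind BMPs outside the cell, and follistatin binds activins. In synovial fibroblasts TGF-β is known for driving matrix production, and Id factors are known as direct targets of BMP signalling.

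The libraries held 16813322 to 17794455 counts each. Protein-coding transcripts (mRNAs) of the mitochondrial genome took 3.33% to 3.55% of the counts of a library with TNF-α and 0.191% to 0.214% with TNF-α+EMO. Of 9 FLS markers in the table, Pdpn, Thy1 and Prg4 were at or near 0 in both groups, and the summed level of the list was 188500 to 209000 normalized counts with TNF-α and 35090 to 37780 with TNF-α+EMO. Most of that sum was Col1a1 (means 111181 and 3709) and Vim (means 61464 and 32387, less than 2-fold lower). Col1a1, Cdh11, Pdgfra, Pdgfrb and Fap were lower by more than 2-fold. The sum of the 8 macrophage markers was 1200 to 1302 and 747 to 818 (Cd163 at 0), in which Cd14 fell (means 1093 and 510.3) while Itgam rose from near 0 and Cd68 was 153 and 256. The sum of 6 endothelial markers was 70.2 to 76.5 and 16.3 to 22.7 (Kdr and Emcn at 0). Chondrocyte markers summed to 487 to 587 and 37.1 to 75.4 (Acan at 0, Sox9 lower and Col11a2 higher). Osteoblast markers summed to 1240 to 1355 and 275 to 341, nearly all of it Runx2 (means 1285 and 307). Ibsp was at 0, and Alpl had means of 1.95 and 8.86. Epithelial markers summed to 9942 to 10800 and 1968 to 2304, nearly all of it Krt8 (means 10389 and 2140). Epcam was at 0, and Krt18 and Cdh1 were at or near 0 in both groups. Smooth muscle and pericyte markers summed to 559 to 597 and 76.8 to 93.7 (Rgs5 at 0). The part of these shifts in the results below was not tested. In bulk libraries, fewer cells of a type and less RNA per cell cannot be told apart.

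The comparison asked how each pathway gene differed with EMO on top of TNF-α. The 3 TGF-β ligands, 4 LTBPs, 3 BMP ligands and 2 GDFs that could be tested all fell, as did the inhibitory Smads, whereas of 4 type II receptors and 4 receptor-activated Smads 1 each fell. Counts were tested with edgeR's quasi-likelihood test and Benjamini-Hochberg adjustment over all 13614 genes tested, and a gene is said to have risen or fallen where its adjusted p was under 0.05 and its absolute log2 fold change over 1. Of the 60 members, 42 had enough counts to be tested. Of these, 29 fell, against 27.8% of all genes tested, and 1 rose, against 19.5%. A log2 fold change under -2 was reached by 23 members, against 16.6% of all genes. By the adjusted p alone, 34 members were lower, against 41.4% of all genes, and 3 were higher, against 39.4%. Thus 7 members passed the test with a change of less than 2-fold, 5 lower (Inhba, Bmpr2, Smad2, Smad5 and Id2) and 2 higher (Smad1 and Smad4), and 5 did not pass (Tgfbr1, Acvr2a, Acvr2b, Skil and Chrd). The median log2 fold change of the 42 was -2.42, or -2.35 with Gdf10 and Acvrl1 set to the bounds given below, and the median of all genes was -0.01. The normalized counts of the groups did not overlap for 37 of the 42, against 82.9% of all genes tested, and for 34 of the 42 they did not overlap and the TNF-α+EMO group was the lower, against 42.5% of all genes tested. A member passes the filter on low counts when it is high enough in either group alone, so the 42 do not stand for all 60. Summed counts of the 60 members made up 0.693% to 0.732% of each TNF-α library and 0.0999% to 0.113% of each TNF-α+EMO library.

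**Figure D1:**
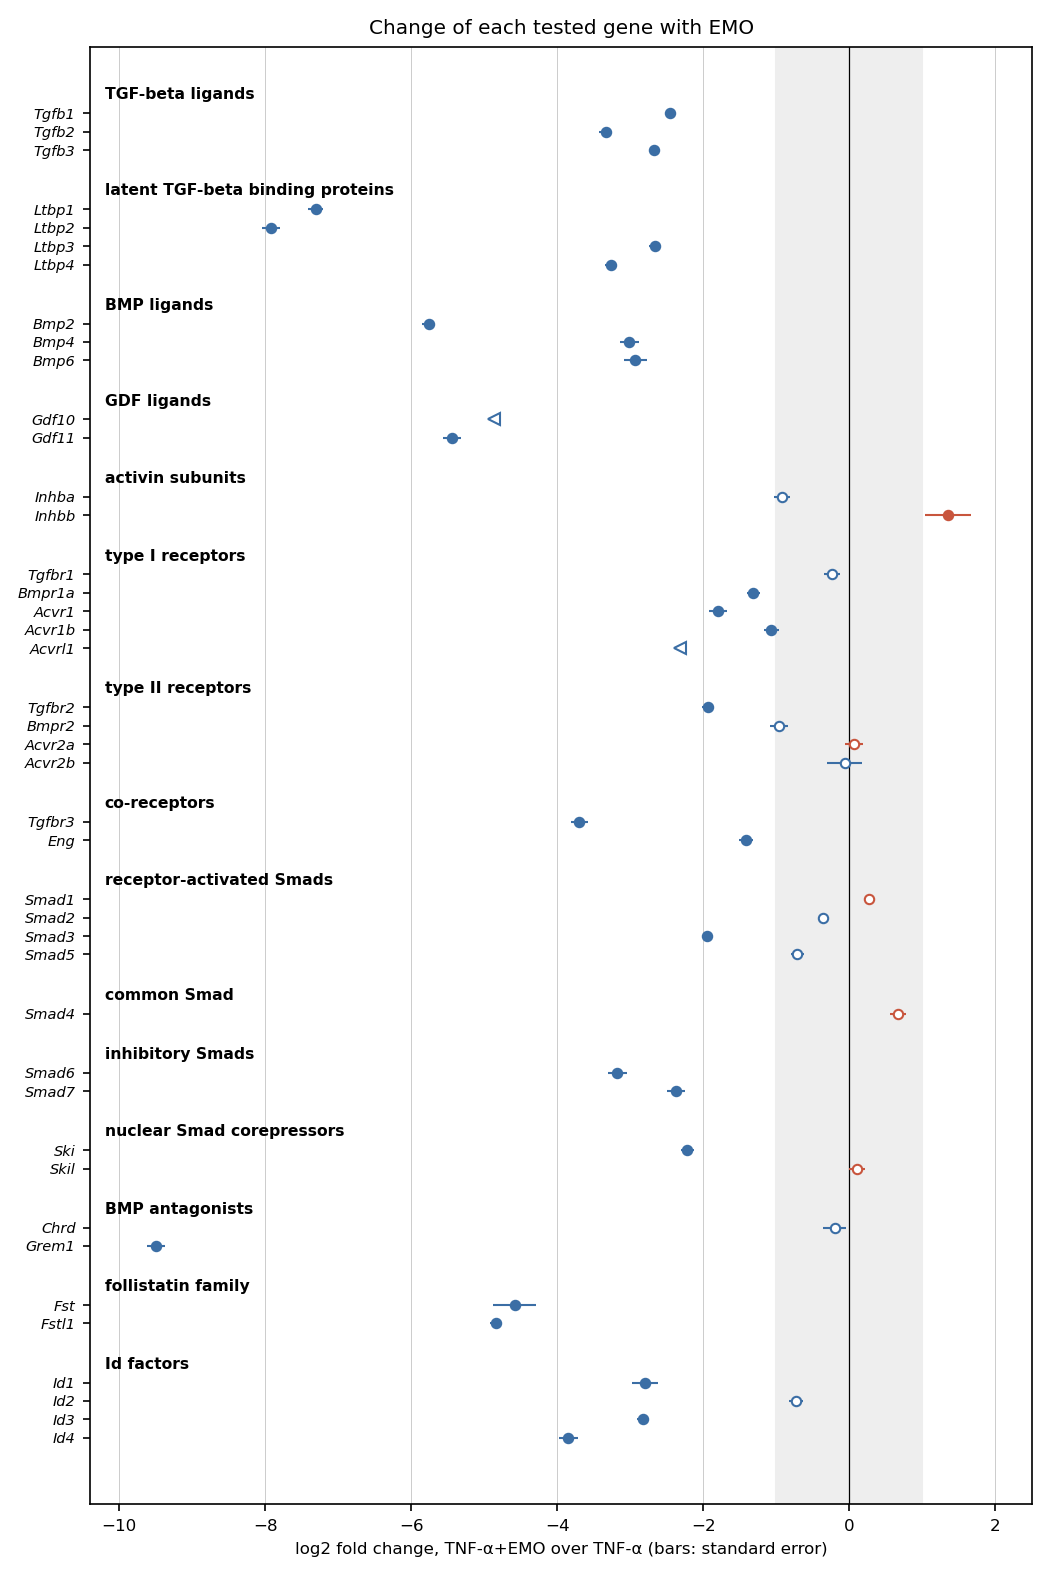
Log2 fold change (TNF-α+EMO over TNF-α, horizontal axis) of the 42 tested genes by role, with bars for the standard error of the edgeR fit, filled points for genes that rose or fell by the rule and open points for the rest. Grey marks changes of less than 2-fold, the triangles at Gdf10 and Acvrl1 are bounds, and the 42 points run from Grem1 at -9.49 to Inhbb at 1.35.

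The 18 members below the filter could not be compared. Of these, 8 had no count in any library, among them Bmp7, Bmp8a, Gdf1, Gdf3, Gdf6, Gdf7 and Smad9. Bmp3, Bmp8b, Gdf9, Acvr1c, Nog and Fstl3 never exceeded 3 counts in a library. Bmp5, Gdf2, Gdf5 and Bmpr1b reached at most 8 counts. Smad9, a BMP-activated Smad, was thus not detectable at this depth in either group, and the BMP antagonist noggin (Nog) had 2 counts in 1 TNF-α library and none in the others.

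The promoter windows of 4 members are shown because Grem1 and Ltbp2 had the lowest fold changes of members with more than 3 counts in a library of each group, and the feedback genes Smad7 and Skil, both known targets of Smads, differed from each other. Each window is the 250 bases before the annotated start, 5′ to 3′ on the gene's strand, from RefSeq on build GRCr8 (Grem1 chr3:120978320-120978569, minus strand, Ltbp2 chr6:110257299-110257548, minus, Smad7 chr18:71263258-71263507, plus, and Skil chr2:114203573-114203822, minus). Capitals mark GGCGCC, the core of the BMP response element, and CAGAC, a Smad-binding element, on either strand, so that GTCTG marks CAGAC on the other strand.
Grem1: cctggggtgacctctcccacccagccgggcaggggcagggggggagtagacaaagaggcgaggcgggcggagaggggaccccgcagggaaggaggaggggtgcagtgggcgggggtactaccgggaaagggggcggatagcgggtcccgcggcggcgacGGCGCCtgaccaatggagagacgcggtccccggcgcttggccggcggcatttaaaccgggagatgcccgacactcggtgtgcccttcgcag
Ltbp2: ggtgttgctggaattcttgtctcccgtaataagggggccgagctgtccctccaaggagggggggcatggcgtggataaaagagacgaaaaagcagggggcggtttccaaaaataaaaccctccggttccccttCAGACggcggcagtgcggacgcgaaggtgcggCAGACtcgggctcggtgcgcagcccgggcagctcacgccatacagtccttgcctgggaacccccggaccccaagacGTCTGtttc
Smad7: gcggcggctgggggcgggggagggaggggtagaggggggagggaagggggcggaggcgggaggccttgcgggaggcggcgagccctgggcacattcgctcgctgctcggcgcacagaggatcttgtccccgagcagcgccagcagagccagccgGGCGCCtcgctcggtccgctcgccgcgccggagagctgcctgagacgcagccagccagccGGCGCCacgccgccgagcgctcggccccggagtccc
Skil: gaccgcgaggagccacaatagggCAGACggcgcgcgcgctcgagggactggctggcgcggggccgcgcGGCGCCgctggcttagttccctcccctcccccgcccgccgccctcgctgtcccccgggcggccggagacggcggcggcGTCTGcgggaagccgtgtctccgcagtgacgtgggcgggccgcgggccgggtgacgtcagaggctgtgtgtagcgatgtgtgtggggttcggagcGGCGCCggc
Smad7, which fell, and Skil, which did not pass the test, each held GGCGCC in 2 places, and Grem1 held it in 1 place. Ltbp2 held CAGAC in 3 places and Skil in 2, while Smad7 and Grem1 held none. Over the 49 of 60 members matched by symbol, GGCGCC lay in 12 windows (24.5%), against 8.69% of the 33469 rat promoter windows of the same length, and in 5 of the 24 matched members that fell. CAGAC lay in 14 (28.6%), against 42.9% of all windows, and TGANTCA, the AP-1 site, lay in 1, that of Bmpr1a (2.04%, against 6.34% of all). These windows were rich in G and C (median 66.4%, against 51.2% of all), whose part in these letter counts was not tested, and a match is a description of letters and not of binding.

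The 3 TGF-β ligands and the 4 LTBPs fell, by log2 fold changes of -2.46 to -7.93. Tgfb1 (chromosome 1, 82480195 to 82497199, build Rnor_6.0, as are all deposited coordinates below), the most abundant TGF-β ligand per length, had 4560.1, 4203 and 3882 normalized counts with TNF-α and 807, 749 and 748 with TNF-α+EMO. The groups did not overlap, and the fold change was 5.49-fold lower (log2 -2.46, standard error 0.08, adjusted p = 2.3e-10 by edgeR). Tgfb2 had 1089, 1149 and 1120.3 normalized counts with TNF-α and 107, 117 and 108 with TNF-α+EMO (log2 -3.34, standard error 0.09, adjusted p = 6.8e-11 by edgeR). Tgfb3 had 3033, 3138 and 2897 with TNF-α and 460.0, 504 and 452 with TNF-α+EMO (log2 -2.68, standard error 0.07, adjusted p = 7.3e-11 by edgeR). Within each group the 3 libraries lay close together for these ligands, so each gap between groups was many times the spread between replicates.

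Of the LTBPs, Ltbp1 and Ltbp2 had lower fold changes than any of the 3 TGF-β ligands. Ltbp2 (chromosome 6, 108500112 to 108596569), a microfibril protein of the family that is thought not to bind TGF-β itself, had 21901, 21731 and 18808 normalized counts with TNF-α and 97.0, 89.0 and 70.3 with TNF-α+EMO. Every TNF-α library was thus far above every TNF-α+EMO library, and Ltbp2 was 243-fold lower (log2 -7.93, standard error 0.12, adjusted p = 2.5e-12 by edgeR). Ltbp1, the main carrier of latent TGF-β, had 5258, 5548 and 5211 normalized counts with TNF-α and 30.9, 29.7 and 39.7 with TNF-α+EMO, and was 159-fold lower (log2 -7.31, standard error 0.10, adjusted p = 1.5e-12 by edgeR). Ltbp3 and Ltbp4 fell less, with log2 fold changes of -2.66 and -3.26. The value of Ltbp3 is uncertain, since the strand setting is not given in the sources used here and reads of overlapping genes may be shared. Summed per kilobase of gene length, the LTBPs had 7443 ± 580 normalized counts with TNF-α and 508 ± 18.6 with TNF-α+EMO (SD, n = 3 each), and the TGF-β ligands 3383 ± 185 and 565 ± 15.8. The LTBP sum includes Ltbp2, at 3102 and 12.7 per kilobase in the group means, so it is not limited to LTBPs thought to bind TGF-β. Within a library, the level of all 4 LTBPs over TGF-β ligand level was 2.24, 2.22 and 2.14 with TNF-α and 0.848, 0.891 and 0.963 with TNF-α+EMO. The 2 sets of ratios did not overlap. The exact permutation p was 0.1, the smallest that 3 libraries against 3 can give, and this ratio and the 5 others below were chosen after the values were seen.

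Among the BMP ligands, Bmp2, Bmp4 and Bmp6 were tested and fell. Bmp2 (chromosome 3, 126335863 to 126346318), an inducer of bone and cartilage, was the most abundant of them per length and had 6461, 6421 and 6076 normalized counts with TNF-α and 101, 131 and 116 with TNF-α+EMO. No TNF-α+EMO library came near the TNF-α group, and Bmp2 was 54.4-fold lower (log2 -5.77, standard error 0.09, adjusted p = 3.3e-12 by edgeR). Bmp4 had 504, 429 and 444 normalized counts with TNF-α and 56.7, 59.3 and 54.0 with TNF-α+EMO (log2 -3.02, standard error 0.13, adjusted p = 2.4e-09 by edgeR). Bmp6, known as a regulator of iron balance, had a log2 fold change of -2.93. Per kilobase, Bmp2 was at 1979 and 36.3 in the group means, Bmp6 at 304 and 39.7 and Bmp4 at 213 and 26.3. Bmp2 thus led the BMP ligands in the TNF-α group, and in the TNF-α+EMO group the 3 means lay within a narrow range.

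Of the GDFs, Gdf11, a ligand close to myostatin that signals through Smad2 and Smad3, had 714, 721 and 717 normalized counts with TNF-α and 17.5, 14.3 and 17.3 with TNF-α+EMO. The TNF-α libraries were all high and nearly equal, and Gdf11 was 43.4-fold lower (log2 -5.44, standard error 0.13, adjusted p = 2.9e-11 by edgeR). Gdf10, also called BMP3b, had 90.2, 87.8 and 91.6 normalized counts with TNF-α and no count in the 3 TNF-α+EMO libraries. Set against a floor of 3 counts per library, Gdf10 was at least 29.2-fold lower with TNF-α+EMO.

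The activin subunits did not fall by 2-fold. Inhba, which encodes the subunit of activin A, had 566, 619 and 607 normalized counts with TNF-α and 367, 272 and 304 with TNF-α+EMO. The groups did not overlap, and Inhba was 1.90-fold lower (log2 -0.93, standard error 0.11, adjusted p = 1.7e-05 by edgeR), short of 2-fold. Inhbb, the subunit of activin B, was the member that rose and is named for that, after its values were seen. It had 10.8, 16.6 and 14.6 normalized counts with TNF-α and 41.3, 38.9 and 27.5 with TNF-α+EMO, so the groups did not overlap at a low level (log2 1.35, standard error 0.32, adjusted p = 0.0024 by edgeR). Per kilobase, Inhbb was at 4.49 and 11.5 in the group means and Inhba at 234 and 123, so Inhba made up most of the pair in both groups.

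**Figure D2:**
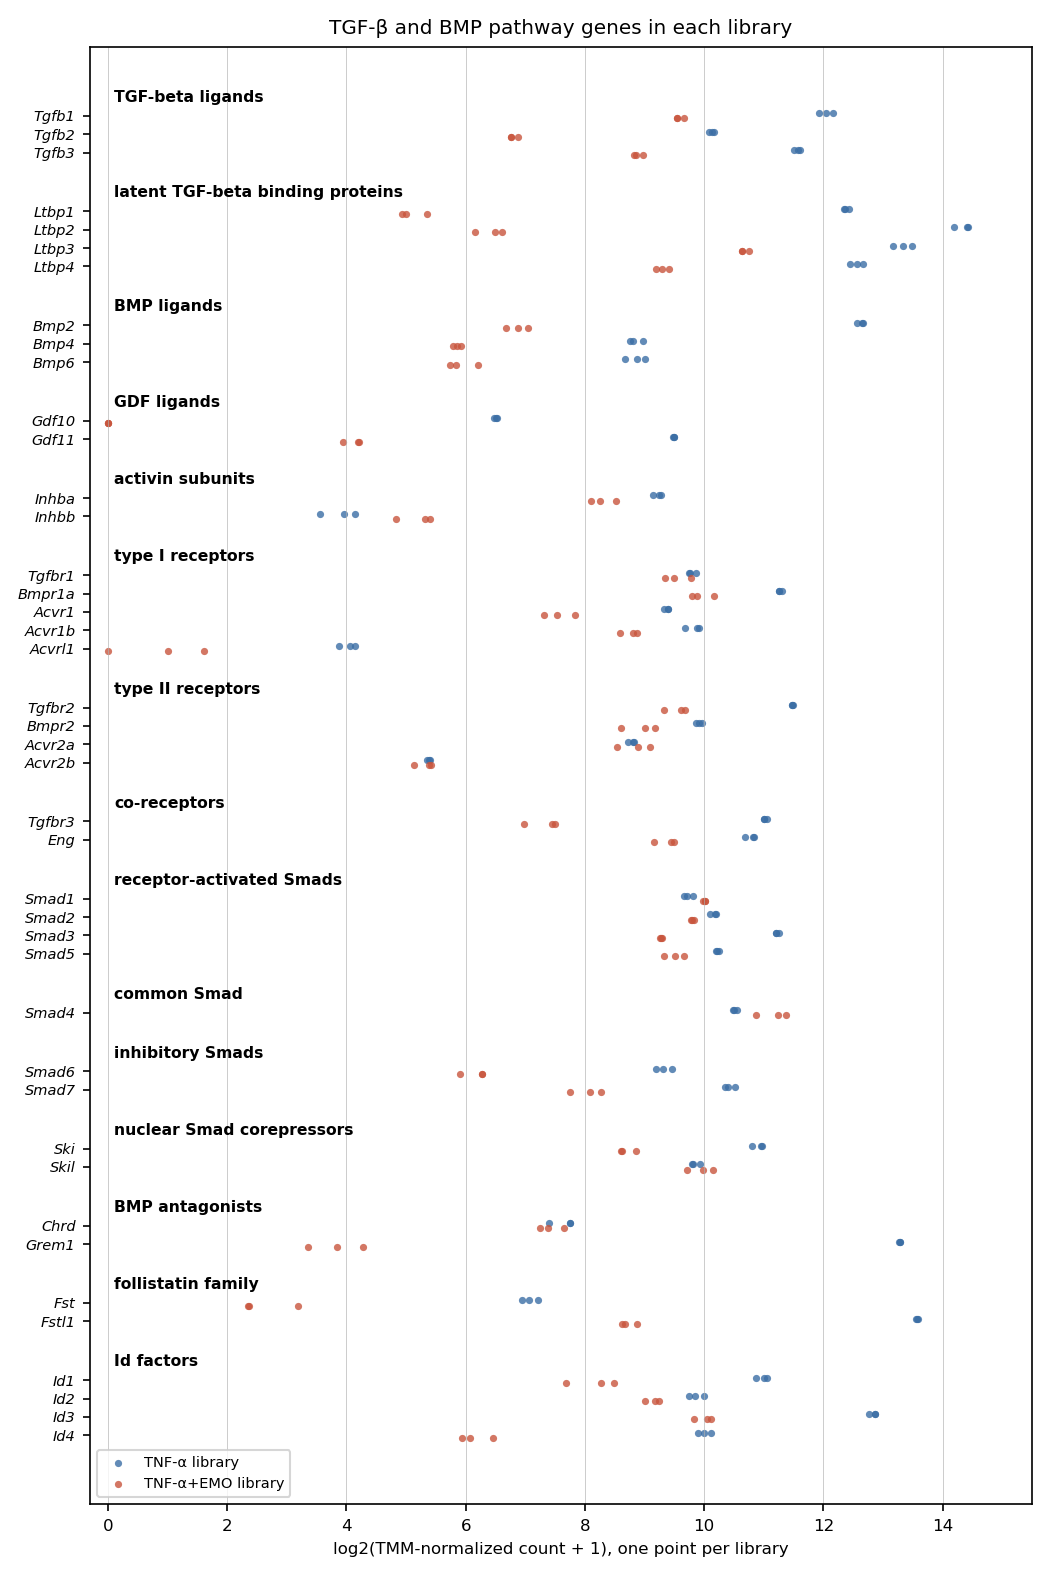
Level of each tested gene (rows, by role) in each of the 6 libraries, as log2 of the TMM-normalized count plus 1 on the horizontal axis, with 1 point per library. The blue TNF-α and red TNF-α+EMO points of Tgfbr1, Acvr2a, Acvr2b, Skil and Chrd overlap, those of the other 37 genes do not, and Gdf10 lies at 0 in the 3 TNF-α+EMO libraries.

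Of the 5 type I receptors tested, the kinases that phosphorylate Smads, 4 fell and 1 did not pass the test. Bmpr1a, a BMP receptor and the most abundant type I receptor per length, had 2445, 2527 and 2439 normalized counts with TNF-α and 1147, 938 and 886 with TNF-α+EMO, without overlap (log2 -1.32, standard error 0.09, adjusted p = 1.4e-07 by edgeR). Acvr1, also called ALK2, had 669, 669 and 643 with TNF-α and 228, 184 and 158 with TNF-α+EMO (log2 -1.80, standard error 0.12, adjusted p = 1.4e-07 by edgeR). Acvr1b, an activin receptor, fell at the edge of 2-fold (log2 -1.07), and its log2 fold change was -0.996 without TNF-α+EMO replicate 2. Acvrl1, the endothelial receptor ALK1, had a mean of 15.3 normalized counts with TNF-α and at most 2 counts with TNF-α+EMO, at least 4.98-fold lower. Tgfbr1, the kinase of the TGF-β receptor complex, had 854, 869 and 926 normalized counts with TNF-α and 879, 718 and 646 with TNF-α+EMO. Its groups overlapped, and its log2 fold change of -0.24 (standard error 0.11) did not pass the test (adjusted p = 0.061 by edgeR). The adjusted p of Tgfbr1 ranged from 0.00198 to 0.18 over the alternatives, and under each of them it changed by less than 2-fold.

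The type II receptors, which bind ligand and activate type I, differed among themselves. Tgfbr2, the TGF-β type II receptor, had 2839, 2869.9 and 2858 normalized counts with TNF-α and 779.8, 643 and 815 with TNF-α+EMO. The TNF-α libraries were nearly equal and all above the TNF-α+EMO libraries, and Tgfbr2 was 3.83-fold lower (log2 -1.94, standard error 0.09, adjusted p = 3.7e-09 by edgeR). Bmpr2, the BMP type II receptor, was 1.96-fold lower (log2 -0.97, adjusted p = 2.9e-05 by edgeR), and its locus overlaps the gene AABR07067829.1, which reached 1252 counts in a library. The activin type II receptors did not pass the test. Acvr2a had 449, 451 and 424 normalized counts with TNF-α and 541, 473 and 371 with TNF-α+EMO, with overlap (log2 0.06, standard error 0.13), and its sign turned when counts were scaled by library totals. Acvr2b had about 40 normalized counts in either group (means 40.7 and 38.9, log2 -0.06, standard error 0.24).

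Within the type II receptors, the share of Tgfbr2 in the summed counts per kilobase was 73.5% ± 0.385 (SD, n = 3) with TNF-α and 51.6% ± 6.22 with TNF-α+EMO. The share of Acvr2a was 7.04% and 19.7% in the group means, and that of Bmpr2 17.9% and 24.4%. Such a share does not depend on how libraries are scaled to each other. Within the type I receptors, the share of Tgfbr1 was 10.7%, 10.7% and 11.9% with TNF-α and 21.7%, 21.5% and 20.1% with TNF-α+EMO, without overlap. Each of these 4 shares gave an exact permutation p of 0.1, the smallest possible, and 0.121 after Benjamini-Hochberg adjustment over the 23 shares computed.

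**Figure D3:**
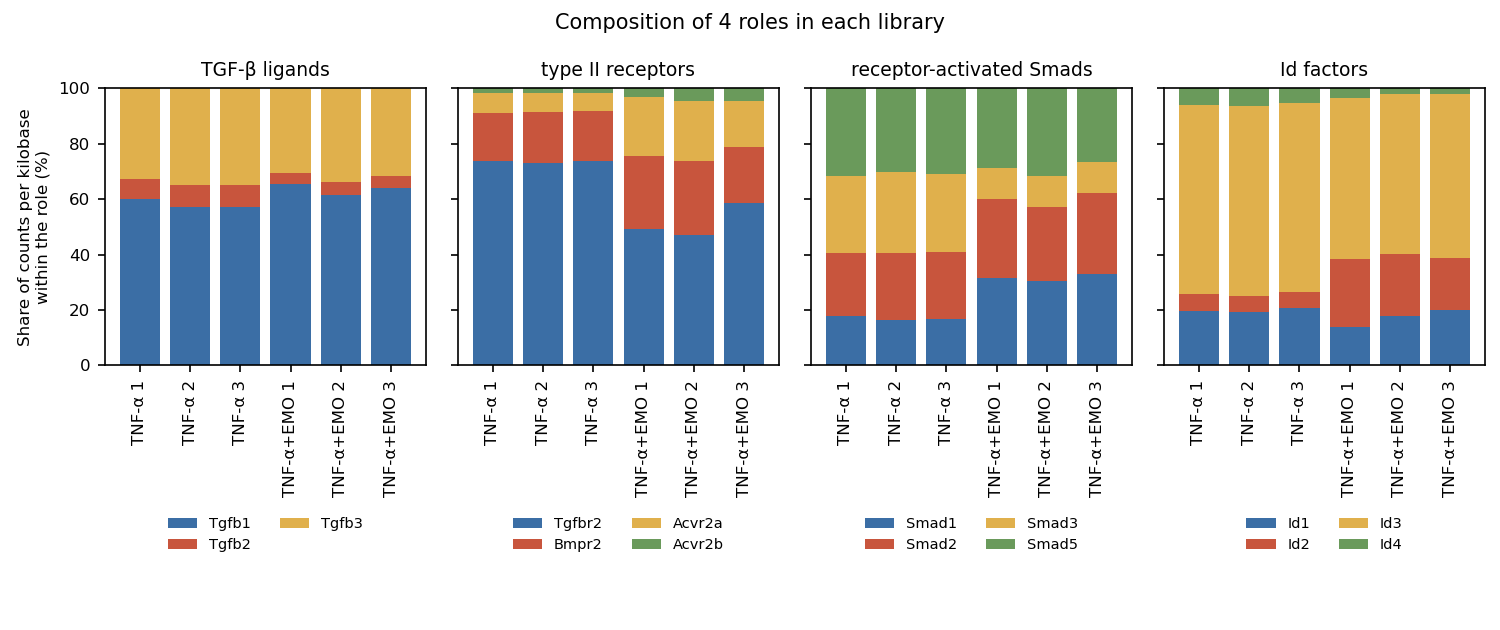
Share of each gene in the summed counts per kilobase of its role (vertical axis, %) in each of the 6 libraries (bars), for the TGF-β ligands, type II receptors, receptor-activated Smads and Id factors. The share of Tgfbr2 went from 73.5% to 51.6%, that of Smad3 from 28.3% to 11.3% and that of Id2 from 5.91% to 21.9% in the group means, while Tgfb1 stayed between 57.0% and 65.3% in every library.

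Both co-receptors fell. Tgfbr3, or betaglycan, which presents TGF-β2 to its receptor, had 2118, 2048 and 2048 normalized counts with TNF-α and 173, 179 and 125 with TNF-α+EMO. It was 13.0-fold lower and the groups did not overlap (log2 -3.70, standard error 0.12, adjusted p = 2.6e-10 by edgeR). Eng, or endoglin, had 1821, 1815 and 1644 with TNF-α and 692, 719 and 567 with TNF-α+EMO (log2 -1.42, standard error 0.09, adjusted p = 1.1e-07 by edgeR).

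The receptor-activated Smads split by gene. Smad3, which with Smad2 carries the TGF-β and activin signal, had 2362, 2454 and 2359 normalized counts with TNF-α and 619.9, 627 and 609 with TNF-α+EMO. The libraries of each group were close together and far apart between groups, and Smad3 was 3.87-fold lower (log2 -1.95, standard error 0.06, adjusted p = 2.6e-10 by edgeR). Smad2 was 1.29-fold lower (log2 -0.37, adjusted p = 0.00046 by edgeR). On the BMP side, Smad5, the most abundant receptor-activated Smad per length with TNF-α (519 normalized counts per kilobase), though below Smad1 with TNF-α+EMO (316 and 345), had 1219, 1172 and 1194 normalized counts with TNF-α and 732, 810.4 and 643 with TNF-α+EMO (log2 -0.71, standard error 0.09, adjusted p = 2.1e-05 by edgeR). Smad1 was 1.21-fold higher (log2 0.27, standard error 0.07, adjusted p = 0.0048 by edgeR), and its adjusted p was 0.063 with library totals.

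Smad4, the common partner of both branches, had 1507, 1455 and 1428 normalized counts with TNF-α and 2665, 2409.8 and 1875 with TNF-α+EMO. Every TNF-α+EMO library was above every TNF-α library, and Smad4 was 1.58-fold higher (log2 0.66, standard error 0.11, adjusted p = 0.00037 by edgeR), less than 2-fold. The share of Smad3 in the counts per kilobase of the receptor-activated Smads was 27.9%, 29.1% and 28.0% with TNF-α and 11.2%, 11.2% and 11.5% with TNF-α+EMO. The share of Smad1 was 18.0%, 16.3% and 16.9% with TNF-α and 31.6%, 30.4% and 33.0% with TNF-α+EMO. Smad2 and Smad3 together went from 52.0% to 39.4% in the group means (exact permutation p = 0.1, adjusted 0.121), so the BMP-activated Smads made up the larger part in every TNF-α+EMO library.

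The inhibitory Smads, which are feedback targets of the pathway as well as inhibitors, fell. Smad6, which acts mainly on the BMP branch, had 704, 587 and 635 normalized counts with TNF-α and 58.8, 76.7 and 76.4 with TNF-α+EMO (log2 -3.18, standard error 0.13, adjusted p = 2.1e-09 by edgeR). Smad7, which blocks both branches and whose promoter window is printed above, had 1471, 1308 and 1343 with TNF-α and 214, 308 and 271 with TNF-α+EMO (log2 -2.38, standard error 0.12, adjusted p = 1.3e-08 by edgeR). Both genes were high in every TNF-α library and low in every TNF-α+EMO library. Summed per kilobase over the summed receptor-activated Smads of the same library, Smad6 and Smad7 were at 0.510, 0.437 and 0.464 with TNF-α and 0.0841, 0.114 and 0.113 with TNF-α+EMO.

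The related nuclear corepressors Ski and Skil (SnoN) had unlike values. Ski had 2006, 1992 and 1789 normalized counts with TNF-α and 387, 463 and 392 with TNF-α+EMO, without overlap, and was 4.66-fold lower (log2 -2.22, standard error 0.09, adjusted p = 1.8e-09 by edgeR). Skil had 896, 978 and 892 with TNF-α and 1139, 1006 and 835 with TNF-α+EMO. Its groups overlapped (log2 0.11, standard error 0.11, adjusted p = 0.37 by edgeR), and its sign turned with library totals.

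Gremlin 1 had the lowest fold change of the members above the floor. Grem1 (chromosome 3, 105203309 to 105214989), which binds BMP2 and BMP4 and keeps them from their receptors, had 9854, 10027 and 9932 normalized counts with TNF-α and 13.4, 9.21 and 18.3 with TNF-α+EMO. The TNF-α libraries were within a few percent of each other and the TNF-α+EMO libraries near the limit of detection, a 721-fold lower level (log2 -9.49, standard error 0.12, adjusted p = 1.1e-12 by edgeR). Chrd, or chordin, another BMP antagonist, had 214, 167 and 214 with TNF-α and 166, 150.4 and 201 with TNF-α+EMO, which overlapped (log2 -0.20, standard error 0.16, adjusted p = 0.26 by edgeR). Per kilobase, Grem1 was at 2609 and 3.58 in the group means and Chrd at 60.7 and 52.8, so Grem1 was above Chrd in the TNF-α group and below it in the TNF-α+EMO group.

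Relative to the ligands it binds, Grem1 was lower in every TNF-α+EMO library than in any TNF-α library. The ratio of Grem1 to Bmp2 and Bmp4 per kilobase was 1.15, 1.19 and 1.24 with TNF-α and 0.0608, 0.0353 and 0.0785 with TNF-α+EMO. The ratio to Bmp2 alone was 1.32 and 0.101 in the group means. Neither ratio overlapped between groups, with an exact permutation p of 0.1 each, the smallest possible.

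Of the follistatin family, Fst and Fstl1 were tested and both fell. Fstl1, a secreted protein raised in arthritic joints, had 12105, 12252 and 12085 normalized counts with TNF-α and 467, 407 and 395 with TNF-α+EMO, and was 28.7-fold lower without overlap (log2 -4.84, standard error 0.08, adjusted p = 3.3e-12 by edgeR). Fst, follistatin itself, which neutralises activins, had 147, 123 and 132 with TNF-α and 4.13, 4.09 and 8.15 with TNF-α+EMO (log2 -4.59, standard error 0.30, adjusted p = 8.3e-08 by edgeR). Fst over Inhba, the antagonist over its ligand, was 0.606, 0.462 and 0.509 per kilobase with TNF-α and 0.0262, 0.0350 and 0.0626 with TNF-α+EMO, again without overlap (exact permutation p = 0.1).

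The Id factors, helix-loop-helix proteins that hold back differentiation, were the most abundant role per length in both groups. Id3 had 7474, 6938 and 7430.0 normalized counts with TNF-α and 909, 1058 and 1106 with TNF-α+EMO, without overlap (log2 -2.83, standard error 0.08, adjusted p = 1.2e-10 by edgeR). Id4 had 1108, 1027 and 949 with TNF-α and 86.6, 60.4 and 66.2 with TNF-α+EMO, a 14.4-fold lower level (log2 -3.85, standard error 0.13, adjusted p = 4.6e-10 by edgeR). Id1 fell by 2.80 on the log2 scale, and Id2 was 1.66-fold lower (log2 -0.73, adjusted p = 2.8e-05 by edgeR). The share of Id2 in the Id counts per kilobase was 6.25%, 5.74% and 5.73% with TNF-α and 24.8%, 22.3% and 18.5% with TNF-α+EMO. Id3 remained the largest share in each library, at 67.9% to 68.6% and 57.9% to 59.2%.

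Set side by side per kilobase, the summed levels of the roles fell unevenly, and a sum can rest on a single gene. The BMP antagonist sum with TNF-α was mostly Grem1 (2609 and 3.58 per kilobase in the group means). Chrd did not pass the test (60.7 and 52.8). Of the corepressors, Ski was 4.66-fold lower and Skil did not pass. The BMP antagonists were 47.4-fold lower with TNF-α+EMO (2670 ± 15.1 and 56.4 ± 9.06 normalized counts per kilobase, SD, n = 3 each), the GDFs 35.6-fold, the follistatin family 28.5-fold, the BMP ligands 24.2-fold and the LTBPs 14.7-fold. The inhibitory Smads were 6.97-fold lower, the Id factors 6.09-fold, the TGF-β ligands 5.99-fold and the co-receptors 3.79-fold. At the other end, type II receptors were 2.69-fold lower, type I receptors 2.26-fold, Ski and Skil 2.07-fold, activin subunits 1.77-fold and receptor-activated Smads 1.54-fold, and Smad4 was 1.58-fold higher. The Id factors over the BMP ligands of the same library were thus higher with TNF-α+EMO (16.8, 15.6 and 18.9) than with TNF-α (4.27, 3.95 and 4.56), without overlap (exact permutation p = 0.1).

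A list of 64 other genes of the pathway was read beside the members, of which 63 were in the table and 45 were tested. Of these, 24 fell and 4 rose, 12 passed with less than 2-fold change and 5 did not pass, with a median log2 fold change of -1.03. The shares of all genes by the same rule were 27.8% and 19.5%. Among genes of latency and activation, 7 of 9 fell, led by Thbs1, an activator of latent TGF-β (log2 -8.10). Of the other antagonists and modulators, 8 of 9 fell, among them the BMP antagonist Nbl1 (log2 -7.11) and the BMP modulator Bmper, at or below 3 counts in the TNF-α+EMO libraries and at least 72.9-fold lower. Of 14 Smad regulators 3 fell, 1 rose and 8 passed with less than 2-fold change, 6 of these higher. Of all 13614 genes tested, 4566 passed with less than 2-fold change, 2707 of these higher. The genes that rose were Ppm1a, a phosphatase that acts on Smads (1154 to 2732 normalized counts, log2 1.24), Gdf15, a stress-induced member of the ligand superfamily that signals through a receptor outside the Smad pathway (at least 198-fold higher), and, named after their values were seen, the BMP antagonist Chrdl1 (at least 9.44-fold higher) and Dcn, or decorin, a matrix proteoglycan that binds TGF-β (1.62 to 28.4 normalized counts, log2 4.02).

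Lists of genes known to respond to the pathway were also read, and some members are on them. The lists also share genes with each other. Thbs1, Bgn and Pmepa1 of the TGF-β targets and Bambi and Bmper of the BMP targets are also among the other pathway genes. Smad7 is on both target lists. Of 27 tested TGF-β targets, 23 fell and 1 rose, with a median log2 fold change of -3.95, or -3.86 where a gene at the floor takes its bound. Of all genes, 27.8% fell and 19.5% rose by the same rule. Without the members, 21 of 24 fell. All 14 tested matrix genes fell, among them Col3a1, a fibrillar collagen (log2 -8.76), and Lox, which crosslinks collagen (log2 -8.66), and Acta2, the smooth muscle actin of myofibroblasts, was at least 149-fold lower. The gene that rose was Cdkn1a, the cell cycle inhibitor p21 (820.5 to 11494 normalized counts, log2 3.81), and Skil, Junb and Angptl4 did not pass. Of 15 tested BMP targets, 13 fell, against 27.8% of all genes, with a median of -2.38, and of the 8 that are not members 7 fell. Atoh8, a transcription factor, had a mean of 918 normalized counts with TNF-α and no count with TNF-α+EMO, at least 299-fold lower. Id2 passed with less than 2-fold change, and Smoc2 did not pass (log2 0.80). These genes respond to other signals too, and several are also FLS or matrix genes, whose summed level moved with the groups as given above.

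**Figure D4:**
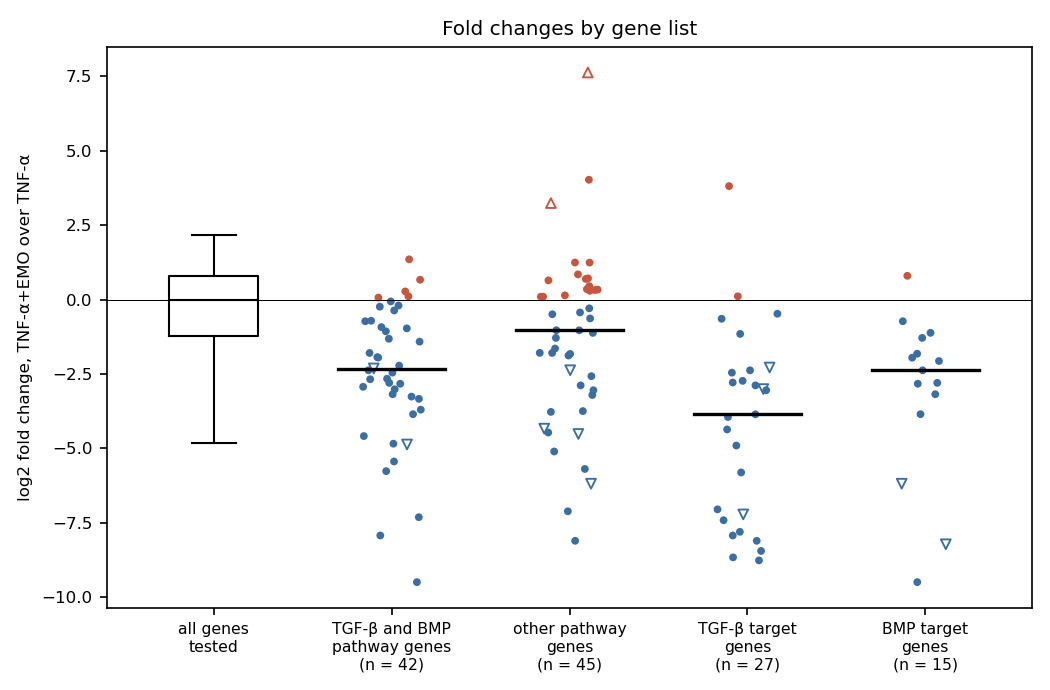
Log2 fold change (TNF-α+EMO over TNF-α, vertical axis) of the tested genes of 4 lists, 1 point per gene with a black line at the median and open triangles at the bound for genes at or below 3 counts in a whole group, beside all 13614 genes (box from the 25th to the 75th percentile, whiskers at the 5th and 95th). Medians with these bounds were -2.35 for the 42 pathway genes, -1.03 for 45 other pathway genes, -3.86 for 27 TGF-β targets and -2.38 for 15 BMP targets, against -0.01 for all genes. Some genes are on several lists.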

How the data were processed

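RNA of 6 rat RA-FLS samples was sequenced from poly(A)-selected libraries. Per the labels and the study's methods, cleaned reads were aligned with HISAT2, to build Rnor_6.0 per the submitters' notes, while the counting program and strand setting are not given in the sources used here. The authors deposited raw counts per gene, which were used, and 6 columns of FPKM, which were not. Their columns of group means, log2 fold changes and p-values were not used.

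A gene was kept when 3 or more libraries had 10 or more counts (13614 of 34156). Counts were scaled by TMM and tested with the robust quasi-likelihood F test of edgeR 4.0.16 in R 4.3.3. A standard error is the log2 fold change divided by the square root of F. Normalized counts are counts scaled to the mean effective library size, and levels of different genes were compared per kilobase of the deposited gene length. A group with at most 3 counts in each library was set to that floor per library, which covers counting error only. Fits were tested on simulated counts.

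Members were found by symbol, and members, lists and ratios were chosen with earlier results of these data known. A member was given in every library if, within its role, it was among the 2 largest changes in a direction with a mean of at least 100 normalized counts, or the most abundant per kilobase. Inhbb, Tgfbr1, Acvr2a, Skil, Chrd, Gdf10 and Fst were added after seeing values. Of other lists, the 3 largest called changes in each direction with a mean of at least 100 were named. The listed names Hfe2, Col1a2, Ctgf and Pecam1 were not analysed here, and some single items are not reported here. Alternatives were DESeq2 1.42.0, other scalings, filters and thresholds, the replicate number as a block, and leaving out each library. Promoter windows were matched by symbol to RefSeq GRCr8, and no coordinates were converted between builds.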

Additional observations from a re-analysis of the deposited data

How the results depend on the processing

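Over 15 alternatives, 23 to 34 members were called lower. The 23 were at an absolute log2 fold change over 2 and the 34 with no fold change threshold. Alternatives that kept the threshold gave 28 (filter of at least 50 counts) to 31 (for instance library totals). The count of members that rose, 1, was 0 with a filter of at least 50 counts, under which Inhbb was not tested, 0 at an absolute log2 fold change over 2 and 3 with no fold change threshold. The median log2 fold change of the members was -2.53 with library totals, -2.09 with no filter on low counts, -2.48 with the filter of 50 counts, and -2.48 to -2.36 when each library was left out in turn. Library totals moved the median of all genes to -0.13, and no filter moved it to -0.13 as well. For the other pathway genes, 2 rose with the filter of 50 counts, 12 were higher with no fold change threshold, and 15 fell at an absolute log2 fold change over 2. Among tests of single members under the alternatives, 531 kept both direction and call, 6 newly passed 2-fold, 1 no longer did and 5 turned sign. A call here needs both thresholds, so a change in the adjusted p alone, as for Smad1, Tgfbr1 and Skil, counts as kept. Inhba and Bmpr2 crossed 2-fold with library totals (log2 -1.04 and -1.08) and without TNF-α+EMO replicate 1 (-1.06 and -1.10), and Bmpr2 also with upper-quartile factors (-1.01) and without TNF-α+EMO replicate 2 (-1.003).

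Signs turned for members near 0. With library totals, Acvr2a was at -0.047 and Skil at -0.0046. Leaving out each library in turn gave ranges of -0.072 to 0.194 for Acvr2a, -0.127 to 0.017 for Acvr2b and -0.0082 to 0.21 for Skil, each sign turning without TNF-α+EMO replicate 1. Skil had an adjusted p of 0.015 by edgeR without TNF-α+EMO replicate 3. With counts not divided by gene length, the summed share of Smad2 and Smad3 was lower by -17.2 percentage points with TNF-α+EMO, against -12.6, and the difference in the share of Smad5 turned to 0.89 points. That of Acvr1b ranged over -0.13 to 2.15 points when each library was left out, and turned without TNF-α+EMO replicate 3.

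The replicate numbers come from the labels. Same-numbered libraries of the groups did not deviate together (Pearson r across genes of 0.0193, -0.00683 and 0.0676), so no pairing was assumed. With a replicate block, 29 members fell and 1 rose, as without it, and the median was -2.42.

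With 3 libraries a group, shares and ratios cannot reach an exact p under 0.1. Mitochondrial mRNAs and FLS markers moved with the groups, so the treatment and these shifts cannot be told apart. Genes at 0 to 3 counts give bounds only. Reads carry no molecular identifiers.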
